A study of Mus musculus with 8 samples.

Results

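Genes for the extracellular matrix and its receptors were examined among the RNA regions bound by YTHDF3 in mouse embryonic fibroblasts (MEFs). They were taken by the gene name given to each peak: collagen chains (Col), laminin chains (Lama, Lamb, Lamc), integrin subunits (Itga, Itgb), Adamts and Adamtsl proteases and relatives, thrombospondins (Thbs), matrix metalloproteinases and their inhibitors (Mmp, Timp), fibrillins (Fbn), lysyl oxidases (Lox, Loxl), and Fn1, Tnc and Sparc. The deposited lists held 1173 such peaks among 87940, namely 253 of 17546 in normal replicate 1, 314 of 22189 in normal replicate 2, 263 of 23294 in starved replicate 1 and 343 of 24911 in starved replicate 2. Peaks in which IP exceeded input 2-fold or more with a p below 0.0001 were kept, which left 251, 311, 258 and 341 of them. Merging the kept peaks of the 4 lists gave 606 matrix regions of 39979, under 90 gene names of 8612, and 72 of these regions were called in all 4 lists, as were 6531 regions in the whole series.

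YTHDF3-bound RNA was immunoprecipitated (IP) with an antibody to the endogenous protein from wild-type C57BL/6 MEFs, and poly(A) RNA of the IP and of an input was sequenced. Embryos of 13.5 days gave the MEFs, which were at passage 5 to 6. The normal group was left in growth medium and the starved group was kept for 2 h in a medium without nutrients, with 2 IP and 2 input libraries each. The labels do not say whether replicates were separate embryos or cultures, so that p-values measure the spread between these samples, which may be technical, and no group carried a genetic change. Kept peaks held 8818619 and 14397476 IP reads in the normal lists and 15715472 and 19271667 in the starved lists (reads outside peaks are not in the lists, so library depth is unknown). Of 8 fibroblast marker genes, 5 (Pdgfra, Pdgfrb, Prrx1, Thy1 and Twist2) had a kept peak by name, against 1 of 5 epithelial (Krt19), 1 of 5 endothelial (Kdr), 1 of 5 blood (Csf1r), 0 of 4 neural and 1 of 4 muscle markers (Acta1). The fibroblast markers Vim, Twist1 and Fap had none. Peaks in all 4 lists were found for 3 of the 5 fibroblast markers, and also for Kdr and Csf1r. A peak is not an expression level, and fewer cells of a type and less RNA per cell cannot be told apart in such bulk samples.

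YTHDF3 is a cytoplasmic reader of N6-methyladenosine (m6A), a methyl mark placed on mRNA mostly at adenosines within a short GGAC-like sequence. Fibroblasts build the connective tissue matrix: collagens form fibrils and networks, fibrillins form microfibrils, lysyl oxidases cross-link collagen and elastin, ADAMTS proteases and metalloproteinases trim the matrix, and integrins, made of 1 alpha and 1 beta chain, tie it to the cytoskeleton. Thrombospondin 1 and tenascin C are matricellular glycoproteins that modulate the binding of cells to the matrix.

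The sequences below are the coding part of the 200 bp window at the center of a region called in all 4 lists. They were read from the mm10 assembly, from 5′ to 3′ on the transcribed strand, with GGAC in capitals, and they give the sequence context of regions named here. Adamts5 and Itga3 were taken from regions ranked by fold or by its change, and Col6a3, Tnc and Thbs1 were chosen after their reads were seen. Only windows that hold GGAC are printed, so that these 7 say nothing of how common it is.
Col6a3 exon 4, chr1:90811451-90811650, minus strand: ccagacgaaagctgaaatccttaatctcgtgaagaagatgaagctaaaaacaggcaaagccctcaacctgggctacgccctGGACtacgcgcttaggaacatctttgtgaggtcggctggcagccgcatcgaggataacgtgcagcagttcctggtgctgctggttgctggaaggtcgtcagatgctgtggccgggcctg
Tnc exon 3, chr4:64017436-64017635, minus strand: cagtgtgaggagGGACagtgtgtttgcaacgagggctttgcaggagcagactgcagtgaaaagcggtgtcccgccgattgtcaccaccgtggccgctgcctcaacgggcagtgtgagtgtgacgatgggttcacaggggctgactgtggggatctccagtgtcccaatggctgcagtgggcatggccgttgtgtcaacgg
Thbs1 exon 3, chr2:118112971-118113170, plus strand: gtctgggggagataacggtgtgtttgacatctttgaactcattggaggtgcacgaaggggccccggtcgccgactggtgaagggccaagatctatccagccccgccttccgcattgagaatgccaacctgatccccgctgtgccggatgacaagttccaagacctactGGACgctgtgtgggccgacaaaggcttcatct
Adamts5 exon 2, chr16:85887817-85887949, minus strand: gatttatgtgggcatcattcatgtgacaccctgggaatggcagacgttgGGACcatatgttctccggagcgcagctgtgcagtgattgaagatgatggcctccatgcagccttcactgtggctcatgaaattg
Adamts5 exon 4, chr16:85869966-85870165, minus strand: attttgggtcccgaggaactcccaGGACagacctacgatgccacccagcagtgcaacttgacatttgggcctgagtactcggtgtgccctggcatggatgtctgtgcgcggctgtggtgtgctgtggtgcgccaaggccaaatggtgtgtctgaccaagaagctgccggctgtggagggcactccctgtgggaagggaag
Adamts5 exon 8, chr16:85862621-85862820, minus strand: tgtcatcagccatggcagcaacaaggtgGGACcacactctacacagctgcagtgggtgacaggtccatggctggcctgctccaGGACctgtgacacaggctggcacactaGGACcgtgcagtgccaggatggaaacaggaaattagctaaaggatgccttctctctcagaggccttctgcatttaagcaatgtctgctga
Itga3 exon 6, chr11:95062711-95062763, minus strand: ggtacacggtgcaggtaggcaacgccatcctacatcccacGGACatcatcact
The motif GGAC was searched on the transcribed strand alone. It was present in the 200 bp center window of 47 of the 72 matrix regions (65.3%, 95% Wilson interval 53.8% to 75.2%, counting error only) and in 3991 of 6462 windows of all regions that could be placed on a gene (61.8%). The GC content averaged 54.3% and 55.2%, respectively. A match describes the sequence and does not place a methyl mark, and regions of 1 gene share a transcript.

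Most regions of matrix genes overlapped an exon. Of the 606 regions, 456 overlapped an exon of the gene they are named for, 75 overlapped an exon of another gene only, 56 lay in an intron of the named gene and 19 overlapped no annotated exon. The deposited name is that of the nearest promoter, and by overlap with exons 834 regions belonged to matrix genes, 485 of them also by name. By the deposited annotation, exons held 55.8% and 58.5% of the matrix peaks in the normal lists and 48.1% and 58.7% in the starved lists, against 44.8%, 50.9%, 42.4% and 51.8% of all peaks in the same order. Introns held 29.9%, 26%, 32.9% and 27% of the matrix peaks, against 18.2%, 19.97%, 21.9% and 19% of all peaks. The 3′UTR held 5.18% and 4.82% of the matrix peaks in the normal lists and 5.81% and 4.99% in the starved lists, where all peaks had 16.9%, 13.2%, 16.8% and 11.3%. In each of the 4 lists matrix peaks were labeled less often as 3′UTR and more often as intron and as exon than all peaks. This difference is given as a description with no test. By overlap, 56 of the 606 merged regions (9.24%) lay in an intron of the named gene and touched no exon. The labels were not compared with the overlap peak by peak, so the intron share need not be of peaks without exon bases.

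Calls differed widely between the lists. Of the 606 matrix regions, 314 (51.8%) were called in 1 list, 143 in 2, 77 in 3 and 72 (11.9%) in all 4, and of all 39979 regions 49.0% were called in 1 list and 16.3% in all 4. Matrix genes took 9.27% and 18.7% of the IP reads in kept peaks in the normal lists and 6.27% and 13.4% in the starved lists, which was higher in replicate 2 in both conditions. Thbs1 and Tnc together held 79.7%, 91.8%, 80.0% and 86.7% of these reads in the same order, and without them the matrix share was 1.88%, 1.54%, 1.25% and 1.78%. The median log2 IP/input fold of matrix peaks was 1.44, 1.46, 1.5 and 1.40 in the 4 lists in the same order, against 1.64, 1.61, 1.57 and 1.64 for all peaks.

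**Figure D1:**
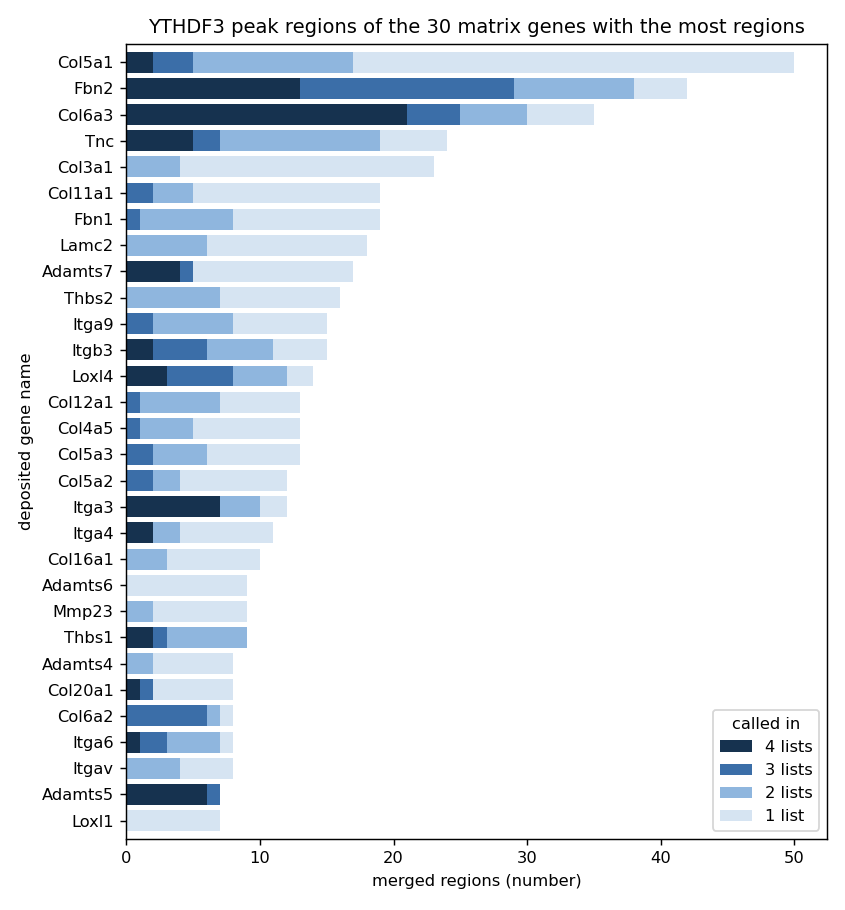
Number of merged regions (horizontal axis) for the 30 matrix gene names with the most regions (vertical axis), with shades for the number of lists in which a region was called. Col5a1 led with 50 regions but had 2 in all 4 lists, whereas Col6a3 had 21 of its 35 in all 4.

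The genes with the most regions were Col5a1 (50), Fbn2 (42) and Col6a3 (35). Col5a1, a chain of the fibril-forming collagen V that sets fibril diameter, had 33 of its regions in 1 list only, and 15 overlapped its exons. Fbn2, encoding fibrillin 2 of elastic microfibrils, had 13 regions in all 4 lists, and Col6a3, the long alpha 3 chain of the beaded filaments of collagen VI, had 21. Other genes with such regions were Itga3 (7), Adamts5 (6), Tnc (5), Adamts7 (4), Loxl4 (3), Itga4, Itgb3, Thbs1 and Col5a1 (2 each), and Adamtsl5, Adamts12, Itga6, Itgb4 and Col20a1 (1 each). These are counts by deposited name, and 3 of the 4 regions named Adamts7 lay on exons of Tbc1d2b only and the fourth on exons of both genes, while the region named Itgb4 lay on exons of Sap30bp and both Col5a1 regions in introns.

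Not every group of matrix genes had a region in all 4 lists. Of 144 protein-coding genes that fit the names, 90 had a kept peak by name and 16 had a region in all 4 lists, which lay in exons of the named gene for 14. None of the 16 basement membrane collagen regions, the 27 laminin regions and the 29 Mmp and Timp regions was called in all 4 lists, against 11.9% of matrix regions and 16.3% of all regions, and this was not tested. By exon overlap, Col4a5 and Mmp28 each had such a region under the name of a neighbor. Col1a1, the main chain of fibrillar collagen I, had no kept peak under its name in any list. Fn1 (fibronectin, the main integrin ligand) and Sparc (a collagen-binding glycoprotein) had 1 region each, in normal replicate 2, outside their exons and with 32 and 11 IP reads. Itgb1, the beta chain shared by most integrins, had 1 region with 23 IP reads in normal replicate 1, also outside its exons. A missing peak means that the fold and p did not pass, and not that YTHDF3 did not bind.

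For several genes the peaks followed the replicate number rather than the condition. Itgav, an alpha chain of receptors for vitronectin and fibronectin, had 0 and 8 peaks in the normal lists and 0 and 4 in the starved lists. Col12a1, a collagen bound to fibril surfaces, had 49 and 21374 IP reads in its normal peaks and 183 and 20772 in its starved peaks. Itga9, a receptor for tenascin C, had 10 and 3 peaks in the normal lists and 9 and 3 in the starved lists. Col6a1, the alpha 1 chain of collagen VI, had 5 and 1 peaks and 6 and 1 peaks, respectively. Replicate 1 thus had most peaks of Itga9 and Col6a1 in both conditions and replicate 2 most of Itgav and Col12a1. These 4 genes were chosen after their values were seen. Replicate 2 also had most peaks of the 2 genes with most of the matrix reads. Thbs1 had 3 and 12 peaks in the normal lists and 2 and 9 in the starved lists, and Tnc had 5 and 21 and then 8 and 21. Of the 9 Thbs1 regions 2 were called in all 4 lists and could be tested, and of the 24 Tnc regions 5.

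The 66 regions called in all 4 lists that overlapped exons of their own gene were mostly single exons with their flanks. Their median length was 750 bp, and the separate medians of the bases inside and outside exons of the gene were 224 bp and 451 bp. In 48 of them 1 exon was covered, and 54 touched coding exons without any UTR, while 6 reached into a 5′UTR and 3 into a 3′UTR. The 200 bp windows with the strongest signal in the 4 lists overlapped each other in 51 of these 66 regions (77.3%), and in 3420 of the 6531 regions of the series (52.4%). Adamts5 had 7 of its 8 exons in such regions, Col6a3 29 of 41, Itga3 12 of 26 and Fbn2 14 of 65. Exons in such regions had a median length of 131 bp and the other exons of these 14 genes 130 bp.

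IP density differed between these genes by orders of magnitude. The density is given as IP reads per kb per 1000000 IP reads in kept peaks, in the order normal replicates 1 and 2 and starved replicates 1 and 2. The Thbs1 region over exons 2 and 3 (chr2:118112371-118113770) had 20380 and 12836 in normal and 10572 and 8055 in starved MEFs. The region on exon 3 of Tnc (chr4:64016591-64018480), which encodes the EGF-like repeats of tenascin C, had 9100 and 6125 and then 8022 and 6023. Both stood above the regions of the other matrix genes called in all 4 lists, and genes with no such region were not ranked.

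The region on exon 4 of Col6a3 (chr1:90811031-90812070) followed with 712 and 508 in normal and 617 and 467 in starved MEFs. Exon 1 of Adamts5 (chr16:85898931-85901790), an aggrecan-cleaving protease, had 246 and 128 and then 185 and 121. The region on exon 10 of Itgb3 (chr11:104643371-104644240), the beta chain of the vitronectin receptor, had 135 and 56.3 and then 102 and 49.2. Replicate 1 was above replicate 2 within each condition for all 5 regions, and the gap between the replicates was larger than that between the conditions for Tnc, Col6a3, Adamts5 and Itgb3.

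**Figure D2:**
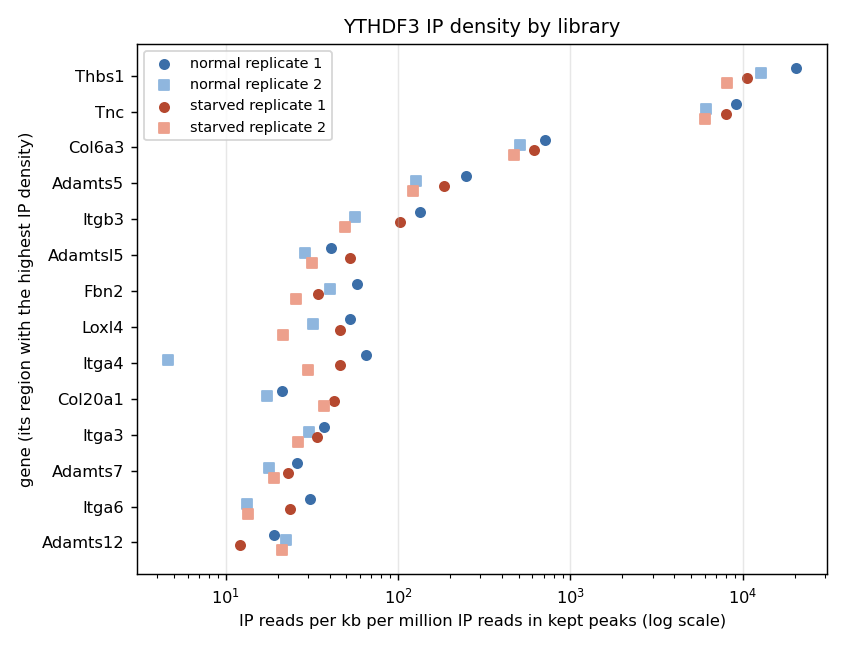
IP reads per kb per 1000000 IP reads in kept peaks (horizontal axis, log scale) of the densest region in own exons of each of 14 matrix genes (vertical axis), 1 point a library. Thbs1 and Tnc lie above the other genes, and Itga4 has a low point in normal replicate 2, where its region held 14 IP reads.

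The highest IP/input folds among regions with measurable input were in Adamts5. The region on its exon 4 (chr16:85869701-85870430) had log2 folds of 2.27 and 1.6 in normal and 2.73 and 2.20 in starved MEFs. That on exons 5 and 6 (chr16:85867911-85868960) had 2.27 and 1.77 and then 2.27 and 2.32, and that on exon 2 (chr16:85887601-85888170) had 2.21 and 2.08 and then 2.69 and 1.51. The exon 15 to 16 region of Itga3 (chr11:95056261-95056970), the alpha 3 chain of a laminin receptor, had 1.78 and 1.69 and then 2.40 and 2.03. The region with the highest mean was in an intron of Col5a1 (chr2:27925831-27926510), and with 5 and 14 input reads in normal and 1 and 0 in starved MEFs its starved folds were computed against 3 reads and are lower bounds. Over the 72 regions the mean log2 fold of the 4 lists ran from 1.16 to 2.26 with a median of 1.5, against a median of 1.63 over all 6531.

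Whether starvation changed the binding of YTHDF3 relative to the RNA present was asked by the IP/input ratio in regions called in all 4 lists. That left 72 of the 606 matrix regions. Regions that gained or lost their call after starvation were not in the test, so it bears only on those called in both conditions. No matrix region changed its ratio past an adjusted p of 0.05 (edgeR quasi-likelihood test over 6531 regions), where 0.0153% of all regions were higher and 0% lower. At an unadjusted p under 0.05, 3 matrix regions were higher (1.26% of all regions) and 1 was lower (1.55% of all regions). The adjusted p was 0.999 for all 72. The median log2 change of the ratio was 0.02 over the matrix regions and -0.02 over all regions. By a rule of a 1.8-fold or larger change of the fold, one way in both replicates, 0 matrix regions were called, and of all regions 0.367% were higher and 0.352% lower. The fold was higher in both replicates in 18 of the 72 matrix regions (25.0%) and lower in both in 12 (16.7%), with 27.3% and 25.3% over all regions.

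The 3 higher regions lay on exons 13, 19 to 20 and 25 of Col6a3, and their folds changed more in replicate 2 than in replicate 1. The region on exons 19 and 20 (chr1:90791681-90792720) had log2 folds of 1.34 and 1.17 in normal and 1.6 and 2.00 in starved MEFs, a log2 change of the ratio of 0.52 ± 0.21 (SE, adjusted p = 0.999, edgeR). For all 9 Col6a3 regions on exons 12 to 28, whose main exons are 54 to 93 bp long, the log2 change of the ratio was from 0.16 to 0.74. This grouping by exons was not set in advance. In these 9 regions IP reads per base changed by -0.12 to 0.11 and input reads per base by -0.67 to -0.24 on the log2 scale. Within replicate 1 the fold of these 9 regions changed by -0.30 to 0.26 with a median of -0.04, and within replicate 2 by 0.56 to 1.26 with a median of 0.83. The median log2 folds of these 9 regions were 1.71 and 1.21 in normal and 1.6 and 2.04 in starved MEFs. The higher fold was thus mainly that of replicate 2, and a difference between the replicates was not tested.

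The 10 regions on the 5′ exons up to exon 10, among them the long exons of about 600 bp such as exon 6 (606 bp), changed in ratio by -0.22 to 0.22. Their median change was -0.02 in replicate 1 and 0.07 in replicate 2. The IP reads per base of all 21 Col6a3 regions changed by -0.21 to 0.11 on the log2 scale, and 19 of the 21 had an input change below 0, none past the test.

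**Figure D3:**
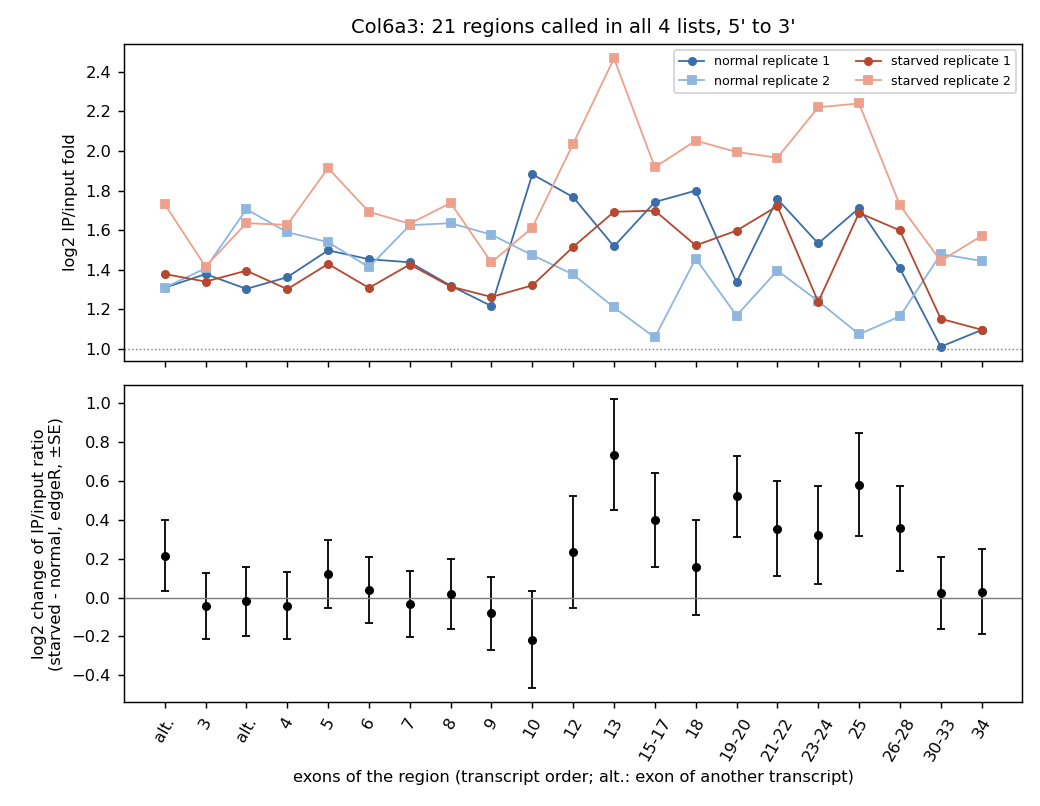
Col6a3 regions called in all 4 lists, from 5′ to 3′, with the log2 IP/input fold in each library above (the dotted line marks a log2 fold of 1, a fold of 2) and the log2 change of the ratio below (edgeR, bars are 1 SE). Between exons 12 and 28 starved replicate 2 lies above the other libraries, and normal replicate 2 lies lowest except on exons 23 to 24, where starved replicate 1 has 1.24 as well.

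In the other direction, 4 Itga3 regions had lower folds in starved MEFs in both replicates, none past the test. The region on exons 13 and 14 (chr11:95057011-95057570) had log2 folds of 1.88 and 1.8 in normal and 1.41 and 1.31 in starved MEFs, and that on exon 4 (chr11:95065591-95066130) had 1.75 and 1.64 and then 1.34 and 1.12. Both regions were picked for a lower fold in both replicates, and the log2 changes of the ratio were -0.54 ± 0.33 and -0.52 ± 0.32 (SE, adjusted p = 0.999 for both, edgeR). These folds rest on 19 to 52 input reads. Exon 6 (chr11:95062501-95063120) and exon 1 (chr11:95075991-95076800) were also lower in both replicates, with log2 changes of the ratio of -0.28 and -0.26, as was exon 15 of Fbn2, with log2 folds of 1.22 and 1.84 in normal and 1.09 and 1.45 in starved MEFs and a log2 change of the ratio of -0.31, or 0.012 without normal replicate 2. The Itga3 region on exons 15 and 16 had 0.38, so that neighboring exons of 1 transcript differed in sign without passing the test.

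Over all regions 3094 of 6531 had a log2 change of the ratio above 0. Adamts5 had 5 of its 6 regions above 0, which share 1 transcript and are not replicates. Its exon 4 region held 690 and 583 IP reads against 115 and 192 input reads in normal and 1134 and 1016 against 73 and 147 in starved MEFs, and the log2 change was 0.48 ± 0.28 (SE, adjusted p = 0.999, edgeR). The exon 8 region (chr16:85862071-85863370), with the 3 GGAC printed above, had 0.40 ± 0.25 (SE, adjusted p = 0.999, edgeR). The exon 13 region of Itgb3 (chr11:104662101-104662690) had fold changes of 0.28 in both replicates on the log2 scale. The region on exon 5 of Adamts12 (chr15:11217601-11218070) had 0.75 and 0.25, where the starved replicate 1 fold rests on 3 input reads, and its log2 change of the ratio was 0.15 in all libraries and -0.20 without normal replicate 2.

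The amount of YTHDF3-bound RNA was compared by IP reads per base and the RNA level by input reads per base, again in regions called in all 4 lists alone. In IP reads per base 0 matrix regions passed an adjusted p of 0.05 (edgeR), while 0.184% of all regions were higher and 0.934% lower. At an unadjusted p under 0.05, 1 was higher (4.99% of all regions) and 7 were lower (5.34% of all regions), and the 7 were 5 Fbn2 and 2 Thbs1 regions. In input reads per base 1 matrix region was higher (0.276% of all regions) and 1 was lower (0.812% of all regions) at an adjusted p under 0.05, and at an unadjusted p 1 was higher (4.03%) and 3 were lower (4.32%). The median log2 change over the 72 regions was -0.09 in IP and -0.27 in input, against 0.01 and 0.02 over all regions, and 57 (79.2%) and 54 (75.0%) of the 72 were below 0, against 48.7% and 48.3% of all regions. Of the 72, 21 are regions of Col6a3 and 13 of Fbn2, which share a transcript within each gene.

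The region on exon 1 of Thbs1 was lower in the input after starvation, and that on exons 2 and 3 did not pass the test. The exon 1 region (chr2:118111061-118112320) had 9538 and 5795 input reads per kb per 1000000 reads in normal and 4329 and 3175 in starved MEFs, and the groups did not overlap. Both starved libraries were likewise below both normal libraries in 15.9% of all regions in input and in 15% in IP. The log2 change of the exon 1 region in input was -0.98 ± 0.17 (SE, adjusted p = 0.0272, edgeR). The region covers the 200 bp of exon 1, which is 5′UTR, and 142 bp of an exon of Gm13986, whose reads cannot be told apart here because the use of strand in counting was not given. The region over exons 2 and 3 had 20892 and 14250 in normal and 13039 and 7985 in starved MEFs, with a log2 change of -0.72 ± 0.15 (SE, adjusted p = 0.0584, edgeR). The log2 changes of IP reads per base did not pass the test, at -1.02 ± 0.22 (adjusted p = 0.0928) and -0.77 ± 0.14 (adjusted p = 0.0569) in the same 2 regions (SE, edgeR), with no overlap between the groups. Leaving out 1 library leaves a condition with 1 library and no measured spread, so only the log2 changes in IP are given for these fits. In the same order of regions they were -0.68 and -0.67 without normal replicate 1, and -1.31 and -0.87 without normal replicate 2. Without starved replicate 1 they were -1.04 and -0.78, and without starved replicate 2 they were -1.01 and -0.77. For the ratio the log2 values were -0.04 ± 0.16 and -0.07 ± 0.15 (SE, adjusted p = 0.999 for both, edgeR).

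The matrix region higher in the input was named Col20a1 (chr2:180980891-180987200) but covered only 79 bp of exon 1 of that gene, beside 1490 bp of exons of Arfgap1, a regulator of Golgi transport, and 3277 bp of BX649560.1. It had 12.5 and 14.6 input reads per kb per 1000000 reads in normal and 48.4 and 46.1 in starved MEFs, a log2 change of 1.79 ± 0.30 (SE, adjusted p = 0.0244, edgeR). Its IP density was 21.1 and 17.3 and then 42.5 and 37.2, a log2 change of 1.09 ± 0.21 (SE, adjusted p = 0.0645, edgeR). The ratio changed by -0.70 ± 0.22 (SE, unadjusted p = 0.00554, adjusted p = 0.999, edgeR), and this was the 1 lower region counted above. Without the length offset the log2 changes were 2.94 in input and 2.29 in IP (adjusted p = 0.263 and 0.319, edgeR). The called length of this region thus differed between the lists, and its densities do not cover the same bases. A change of the collagen gene cannot be read from this region.

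Fbn2 had 13 regions on exons 7 to 36, each with a log2 change of IP reads per base below 0. The region on exon 24 held 57.7 and 40.0 IP reads per kb per 1000000 reads in normal and 34.2 and 25.4 in starved MEFs, and its log2 change was -0.67 ± 0.22 (SE, adjusted p = 0.296, edgeR). The largest change, -1.06 ± 0.32 on exon 34 (SE, adjusted p = 0.256, edgeR), rests on 47 IP reads in starved replicate 1. In 7 of the 13 regions both starved libraries were below both normal libraries in IP density, as in 13 of the 72 matrix regions and 15% of all regions, and 1 of the 72 was above, against 10.4%. In input density 19 of the 72 matrix regions were below, 3 of them in Fbn2, against 15.9% of all regions, and 4 were above, against 12.2%. The 13 regions share 1 transcript and are not replicates. The ratio of the Fbn2 regions changed by -0.42 to 0.26, with 7 below 0 and 6 above.

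**Figure D4:**
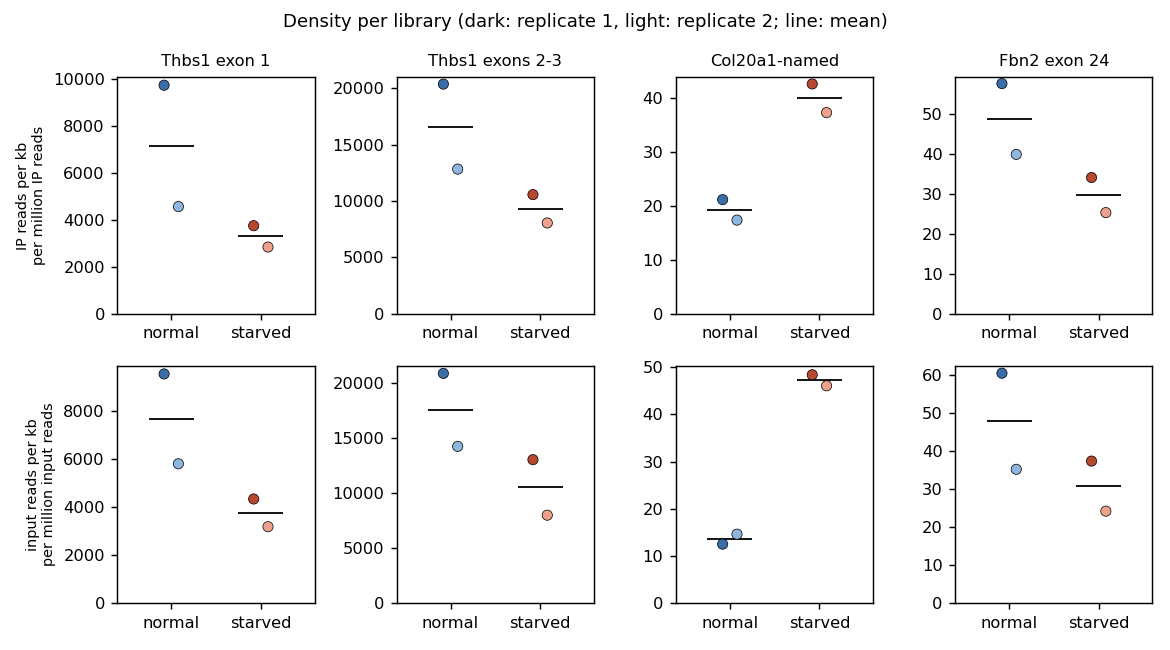
IP (upper row) and input (lower row) reads per kb per 1000000 reads in kept peaks of 4 regions, 1 point a library and a line at the mean of the 2 replicates. The Thbs1 and Fbn2 points of starved MEFs lie below those of normal MEFs, apart from input on Fbn2 exon 24 where starved replicate 1 is above normal replicate 2, and the region named Col20a1 lies above.

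For Tnc, with the other very dense regions, no change passed the test. Its 5 regions on exons 2, 3, 4, 11 and 12 had log2 changes of -0.11 to 0.01 in IP reads per base and of -0.30 to -0.12 in input reads per base, none past the test, and the ratio changed by 0.04 to 0.20. On exon 3 the IP reads, not scaled to the reads in kept peaks, were 149270 and 164031 in normal and 233218 and 219365 in starved MEFs. The scaled densities of this region are given above. The 3 Loxl4 regions, in a lysyl oxidase that cross-links collagen, had IP changes of -0.32 to -0.03. The 2 Itga4 regions, in the alpha chain of a fibronectin and VCAM1 receptor, had IP changes of -0.09 and 0.26. The second value is that of exon 1 (chr2:79255241-79255990), where normal replicate 2 held 14 IP reads and 0 input reads against 310 and 105 in normal replicate 1.

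**Figure D5:**
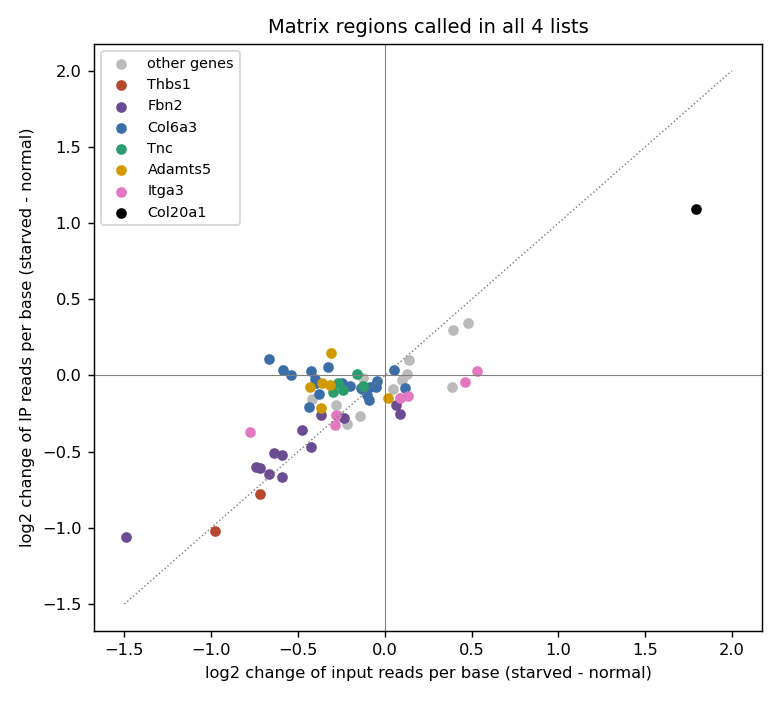
Log2 change of IP reads per base (vertical axis) against that of input reads per base (horizontal axis), starved minus normal, for 68 of the 72 matrix regions, without 4 regions whose input was at or below 3 reads in a library. The dotted line marks equal changes, and the 2 Thbs1 regions lie close to it.

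Regions called in 1 condition alone were few. In both normal lists and no starved list 15 matrix regions (2.48%) were called, against 1.3% of all regions, and in both starved lists and no normal list 17 (2.81%), against 4.7% of all regions. The starved regions with the most reads were exon 1 of Tnc (chr4:64046511-64047200) with 34579 and 22350 IP reads, exon 25 of Col5a1 (chr2:27975321-27975850) with 2954 and 2912, a region named Col3a1 on an exon of Col5a2 (chr1:45404491-45405540) with 3897 and 2677, and exon 1 of Adamts12 (chr15:11064661-11065300) with 870 and 792. Their log2 folds in starved MEFs were from 1.03 to 1.32, just above the threshold of 1, and the lists give no value below it for normal MEFs.

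The normal regions with the most reads were exons 11 and 12 of Loxl4, with 253 and 302 and with 121 and 146 IP reads, exon 1 of Adamts4 with 179 and 192, and an intron of Loxl3 with 100 and 233. Their log2 folds were from 1.04 to 1.41. Col5a3, another chain of collagen V, had 4 of the 15 normal regions, with 32 to 176 IP reads, and Itga6, the alpha chain of a laminin receptor, had 2 of the 17 starved regions, with 172 to 269.

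By exon overlap, 7 more regions in matrix genes were called in all 4 lists under the name of a neighbor. They lay in exons of Col8a1 (2 regions, named Cmss1), Mmp28, Itga3, Adamts12, Col7a1 and Col4a5. The larger region of Col8a1 (chr16:57626801-57629050), a short-chain collagen, held 11860 and 8077 IP reads in normal and 16048 and 9878 in starved MEFs, with log2 folds of 1.81 and 1.14 and then 1.86 and 1.73. These reads are not scaled to the IP reads in kept peaks, which were more in the starved lists, so they show no rise.

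Genes for proteins that process, surround or bind the matrix had no region past a test. Of 34 other matrix glycoproteins and proteoglycans, 21 had a kept peak and 6 (Agrn, Emilin1, Ltbp2, Matn2, Mfap4 and Nid1) had 12 regions in all 4 lists by name, with 0 higher and 0 lower at an adjusted p under 0.05 for ratio, IP and input (edgeR). Of these 12, both regions named Ltbp2 overlapped exons of other genes only, and the region named Mfap4 covered 130 bp of that gene beside 829 bp of Mapk7. Of 22 collagen-processing genes, 11 had a kept peak, and the 1 region in all 4 lists, named Serpinh1, lay on exons of Map6 and had no call. Of 25 genes of the integrin adhesion complex, 19 had a kept peak and 5 (Bcar1, Cd44, Dag1, Tns1 and Tns3) had 43 regions, again with 0 higher and 0 lower in the 3 tests. At an unadjusted p under 0.05, 6 of these 43 were lower in IP (5.34% of all regions) and 9 in input (4.32% of all regions), with 0 higher in either, and the 43 regions belong to only 5 genes. The 6 were 5 regions of Bcar1, a scaffold of focal adhesion signaling, with log2 changes of -1.06 to -0.58, and 1 region of Cd44, the hyaluronan receptor, with -0.68. The median log2 change of the 43 regions was -0.23 in IP and -0.22 in input.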

How the data were processed

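YTHDF3 IP and input RNA of normal and starved MEFs (2 replicates each, 8 samples) was measured by RIP-seq. Reads were trimmed by the authors and aligned to mm10 with TopHat2 2.0.13 (per the submitters' processing notes), and the authors called peaks of each IP library against an input with diffReps and named them with HOMER. For 3 libraries the authors deposited a signal, reads per peak times 1 factor, and for normal replicate 2 they deposited counts. The authors also deposited log2 ratios and p-values. Whole reads were recovered from the signal (100% of the values within 0.1 read). The input of a list is not named and was taken to have the same condition and replicate number.

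Kept peaks overlapping by at least 1 bp were merged. A fold against fewer than 3 input reads used 3 reads. The fold of a region is that of its best peak. For regions present in every list, edgeR 4.0.16 (R 4.3.3) was fitted (TMM, quasi-likelihood, Benjamini-Hochberg adjustment, peak length as offset for IP and input, no replicate block, all 4 lists in 1 fit), which was tested on simulated data. Exons came from GENCODE M21, 1 transcript a gene for exon numbers, and GGAC from the GRCm38 genome with pysam 0.24.0. Python 3.11.15 was used.

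The genes, lists, tests and alternatives were chosen with earlier results of these data known. The regions named are the densest region of each gene group, those past a test, the 6 per direction ranked by the replicate with the smaller change (at least 20 IP reads in every list), the 6 with the highest mean fold, the 4 with the most reads called in 1 condition alone, and the 3 genes with the most regions. Others are named from their values. Alternatives covered thresholds, overlap, normalization, DESeq2 1.42.0, length, a replicate block, membership by exon and leaving out each library. Library depth is unknown, since the lists hold called peaks alone, and intervals cover counting error only.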

Additional observations from a re-analysis of the deposited data

How the results depend on the processing

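The labels give the replicates of both conditions the same 2 numbers without saying what they share. The differences between the replicates were correlated between the conditions (r = 0.275 for the ratio and 0.452 for IP reads per base over 6531 regions). With a replicate block in edgeR, 1 matrix region (named Col20a1) was higher and 4 (2 of Thbs1 and 2 of Fbn2) were lower in IP reads per base, among 5.31% and 5.51% of all regions, and 1 was higher and 2 (both Thbs1) were lower in input reads per base, among 2.47% and 2.85%. The block gave 0 calls for the ratio.

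In IP reads per base, DESeq2 called 1 matrix region higher and 2 lower, and upper quartile normalization, a mean of at least 50 IP reads and a stricter peak p (under 1e-08) each called 1 lower. Leaving out each library in turn leaves 1 library in a condition, whose spread is then not measured, so the IP and input calls of these fits are not given. These fits are among the alternatives counted below. Without the length offset, or at a 4-fold IP/input minimum, which leaves 2 matrix regions, input had 0 calls higher and 0 lower. The ratio had 0 calls in every alternative. For the Thbs1 exon 1 and Col20a1-named regions the input call held in 11 of 12 alternatives, with adjusted p from 9.39e-06 to 0.21 and to 0.263.

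The 1.8-fold count was 0 higher and 1 lower (the intronic Col5a1 region) with a floor of 10 input reads, and with 1 replicate alone 2 to 5 were higher and 4 to 5 lower, of more regions. The number called in all 4 lists fell from 72 to 2 at a fold of at least 4 and to 47 at the stricter p, that called in starved lists alone from 17 to 5 and 10, and that in normal lists alone from 15 to 3 and 4. GGAC was in 41.7% of matrix windows of 100 bp (40.0% of all windows), and in 56.9% of the windows with the strongest signal, below the 59.2% of all. Alternatives were run for 5 regions in IP or input and for 12 regions in the ratio. The ratio changed sign for Adamts12 exon 5 without normal replicate 2 (-0.20) or without starved replicate 1 (-0.0074; -0.20 to 1.14 over the libraries left out), and for Fbn2 exon 15 without normal replicate 2 (0.012; -0.55 to 0.012), the others kept theirs, and the cause of the moved counts was not tested. With 2 replicates per condition, regions of few input reads carry wide errors, and no exact permutation test over these samples can pass 0.05.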
